A study of Mus musculus with 8 samples.

Results

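The S100 genes encode small calcium-binding proteins of the EF-hand type, and the 10 described here are S100a3, S100a4, S100a6, S100a8, S100a9, S100a10, S100a11, S100a13, S100a14 and S100a16. They were taken by symbol from 28792 gene symbols, and they were chosen by the FPKM values of S100a4, which differed in opposite directions in the 2 comparisons of the series. Those differences are therefore given as a description, and nothing is read from them. Of the 8 samples of the series, 4 are RNA sequencing libraries of hair follicle stem cells sorted from mouse back skin, with 1 library per group. The remaining 4, from chromatin immunoprecipitation, were not analysed here.

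In the first comparison, the library labelled cKO came from K15CrePGR;Ctnnb1fl/fl;Rosa-YFPfl/stop/fl mice, in which Ctnnb1, which encodes β-catenin, is floxed on both copies. The library labelled Het came from K15CrePGR;Ctnnb1+/fl;Rosa-YFPfl/stop/fl mice. Both groups thus carried the Cre, which is driven by a keratin 15 promoter, the reporter and at least 1 floxed copy, and both were females of postnatal day 99 on a C57BL6/129Sv background. The labels name telogen for this pair in the growth protocol and the start of anagen in the design. In the second comparison, bulge cells of C57BL6 males of postnatal day 24 were sorted into LacZ(+) and LacZ(-) cells. All of these mice were Axin2LacZ/+, so that LacZ reports activity of the Wnt target Axin2, and their follicles were passing from rest (telogen) to growth (anagen). The number of mice behind a library is not given in the labels. The values are FPKM, fragments scaled to transcript length and library total, so levels may be set beside each other between genes. They keep no read counts, so the depth is unknown, and no difference below has a replicate check or a test.

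S100 proteins act mostly as pairs inside the cell. Binding calcium exposes a surface that grips a target, such as an annexin, a cytoskeletal protein or an enzyme, and some members are also released and bind cell surface receptors. Their genes lie clustered beside the genes of the cornified envelope in a region called the epidermal differentiation complex. In mouse skin, S100A4 and S100A6 proteins have been described in the bulge region of the follicle, and S100A8 and S100A9 in inflamed or wounded epidermis.

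The labels were checked on the targeted gene and on a Wnt target. Ctnnb1 stood at 370 FPKM in the library labelled cKO and 251 FPKM in the library labelled Het, which is opposite to a loss. A value for a whole gene does not resolve the floxed part, so it does not check the genotype, and the libraries are called by their labels. Axin2 stood at 2.12 FPKM in the library labelled cKO and 16.3 in the library labelled Het, and at 18.98 FPKM in LacZ(+) and 9.10 in LacZ(-) cells. Of 7 bulge markers all reached 1 FPKM in both comparisons. Cd34, whose interval is shared with 4 other genes, stood at 752, 645, 223 and 516 FPKM in cells labelled cKO, Het, LacZ(+) and LacZ(-). Krt15 is listed at 0 in LacZ(-) cells and lies between 5951 and 7528 FPKM in the other libraries; a listed 0 of this kind may be an estimate that failed. A difference is the log2 of (FPKM + 1) in the first group over (FPKM + 1) in the second, and a size of 1 or more is called past the 2-fold line.

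S100a4 was the member with the largest difference in both comparisons, and the directions were opposite. S100a4, also called metastasin or fibroblast-specific protein, binds non-muscle myosin and affects cell movement. Its level was 5913 FPKM in the library labelled cKO and 2139 FPKM in the library labelled Het, a log2 difference of 1.47. It was 268 FPKM in LacZ(+) cells and 837 FPKM in LacZ(-) cells, a log2 difference of -1.64. Of the 13014 genes that reached 1 FPKM in the first comparison, 139 had a difference at least as high, S100a4 included. Of 13283 such genes in the second, 99 had a difference at least as low. In the order of all symbols by level, S100a4 was at place 19 in the library labelled cKO and 46 in that labelled Het, and at place 322 in LacZ(+) and 136 in LacZ(-) cells.

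S100a6, which starts 6.85 kb beyond the end of S100a4 with S100a5 between them, did not go with S100a4 in the first comparison. S100a6, or calcyclin, is a partner of annexins and of the calcyclin-binding protein Cacybp. It stood at 2506 FPKM in the library labelled cKO and 2962 FPKM in the library labelled Het, a log2 difference of -0.24. In LacZ(+) cells it stood at 2307 FPKM and in LacZ(-) cells at 4231 FPKM, a log2 difference of -0.87, inside the 2-fold line. The ratio of S100a4 to S100a6 does not depend on the scaling of a library. It was 2.36 in the library labelled cKO and 0.722 in the library labelled Het, and 0.116 in LacZ(+) and 0.198 in LacZ(-) cells. S100a4 thus stood above S100a6 in the library labelled cKO and below it in the other libraries. On the log2 scale without a pseudocount, this ratio differed by 1.71 in the first comparison and -0.77 in the second. S100a4 is its numerator and was chosen for its differences, so the direction of the ratio is no separate result.

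**Figure D1:**
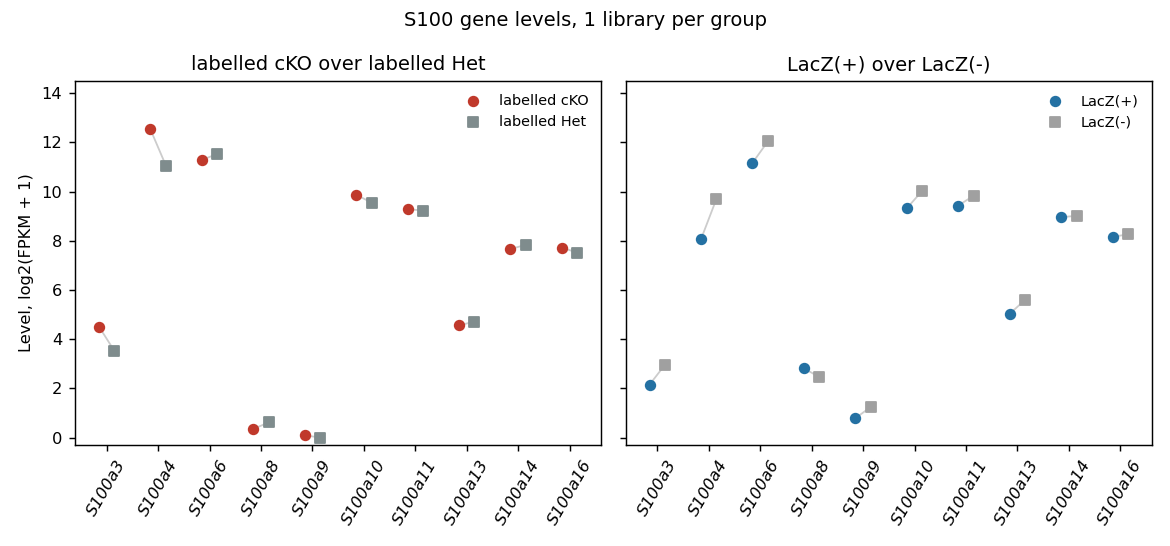
Level of each S100 gene as log2(FPKM + 1), with the libraries labelled cKO (red circles) and Het (grey squares) on the left and LacZ(+) (blue circles) and LacZ(-) (grey squares) cells on the right. Each point is 1 library and a line joins the 2 libraries of a gene; S100a4 has the steepest line in both panels, downward from the first library in the left panel and upward in the right.

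S100a3 was the member most like S100a4. It encodes a cysteine-rich protein of the hair cuticle, and in the tables its interval (mm9 chr3:90404136-90406624) ends 1066 bases before that of S100a4 (mm9 chr3:90407691-90409967). It stood at 21.7 FPKM in the library labelled cKO and 10.4 FPKM in the library labelled Het, a log2 difference of 0.99. In LacZ(+) cells it stood at 3.45 FPKM and in LacZ(-) cells at 6.80 FPKM, a log2 difference of -0.81. Both values lie inside the 2-fold line, the first through the pseudocount alone: the FPKM differed 2.08-fold, and the authors' deposited table gives a log2 fold change of 1.06. S100a4 was 272 and 205 times as high as S100a3 in the libraries labelled cKO and Het, and 77.6 and 123 times as high in LacZ(+) and LacZ(-) cells. Hair cuticle and shaft keratins, of which 6 of 7 listed genes were in the tables, summed to 2.63 FPKM in the library labelled cKO and 4.49 FPKM in that labelled Het, and to 8.60 FPKM in LacZ(+) and 9.66 FPKM in LacZ(-) cells. Krt32 made up most of these sums, with 2.26 and 4.18 FPKM in the libraries labelled cKO and Het, and was the single gene of the list that reached 1 FPKM in that comparison. Krt40 is listed at 0 in all 4 libraries.

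The promoters of S100a4, S100a3 and S100a6 are shown because these genes lie close together and, in the first comparison, S100a3 went with S100a4 and S100a6 did not. They are the 250 bases before the gene start on the plus strand of GRCm38.p6, a later build than that of the table intervals. They come from RefSeq, which annotates 4 starts for S100a3. The start with a motif match and the start with the letters TATAAA are given. By their coordinates the TATAAA start lies before the other and farther from S100a4, so it may lie outside the measured S100a3 interval. Capitals mark 2 kinds of letters. The first are the TCF/LEF letters, CTTTG followed by any 2 letters of A and T, searched on both strands, to which the factors that carry β-catenin bind. The second is TATAAA on the gene's strand, a search added after the sequences were seen.
S100a4, chr3:90603520-90603769: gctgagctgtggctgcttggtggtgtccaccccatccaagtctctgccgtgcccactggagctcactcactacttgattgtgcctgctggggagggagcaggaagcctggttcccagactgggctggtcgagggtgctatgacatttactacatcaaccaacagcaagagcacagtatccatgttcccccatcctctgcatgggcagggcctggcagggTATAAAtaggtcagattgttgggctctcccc
S100a3, chr3:90599964-90600213: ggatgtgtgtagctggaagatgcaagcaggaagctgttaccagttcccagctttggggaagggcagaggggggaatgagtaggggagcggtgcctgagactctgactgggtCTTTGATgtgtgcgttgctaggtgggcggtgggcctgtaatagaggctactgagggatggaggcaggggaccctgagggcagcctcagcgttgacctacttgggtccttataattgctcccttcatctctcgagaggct
S100a3, chr3:90588313-90588562: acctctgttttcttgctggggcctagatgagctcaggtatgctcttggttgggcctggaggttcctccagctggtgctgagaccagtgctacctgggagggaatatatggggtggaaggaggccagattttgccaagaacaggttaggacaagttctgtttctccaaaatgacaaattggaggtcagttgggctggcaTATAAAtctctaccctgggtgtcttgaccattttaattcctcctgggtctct
S100a6, chr3:90612644-90612893: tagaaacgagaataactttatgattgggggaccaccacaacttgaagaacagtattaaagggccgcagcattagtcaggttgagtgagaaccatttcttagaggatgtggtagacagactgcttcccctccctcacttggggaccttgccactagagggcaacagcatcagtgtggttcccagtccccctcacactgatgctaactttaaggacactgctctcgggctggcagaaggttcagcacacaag

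The TCF/LEF letters occurred in 1 of 12 windows of the 8 members with a promoter in the table, the S100a3 window above, 139 bases before that start. They occurred in 14.8% of all 32851 windows of the same length. TATAAA lay 31 bases before the S100a4 start, 52 bases before 1 S100a3 start and 30 bases before the S100a8 start. These were 3 of the 12 windows, against 7.59% of all windows. A match is a description of letters and no evidence of binding; S100a10 and S100a14 were not among the promoters used.

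The annexin partners S100a10 and S100a11 were high in all 4 libraries and differed by less than 2-fold. S100a10 forms a tight complex with annexin A2 and, unlike most members, holds its shape without calcium. It stood at 938 FPKM in the library labelled cKO and 751 FPKM in the library labelled Het, a log2 difference of 0.32. Its level was 639 FPKM in LacZ(+) and 1049 FPKM in LacZ(-) cells, a log2 difference of -0.71. S100a11, a partner of annexin A1, stood at 625 FPKM in the library labelled cKO and 599 FPKM in the library labelled Het. Its log2 difference was 0.061, or -0.0065 relative to the median of genes that reached 5 FPKM in both libraries. In LacZ(+) cells it stood at 690 FPKM and in LacZ(-) cells at 914 FPKM, a log2 difference of -0.40. These genes were thus within 2-fold in both comparisons, and both had the sign of S100a4 in each. Relative to the median, S100a11 lost that sign in the first comparison. Of all genes, 60.9% were higher in the first comparison and 63.4% lower in the second.

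S100a14 and S100a16 had the smallest differences of the family in the LacZ comparison, and S100a13 lay lower in level. S100a14 and S100a16 are expressed in many epithelia, and S100a13 takes part in the release of growth factors that lack a signal peptide. S100a14 stood at 202 FPKM in the library labelled cKO and 228 FPKM in the library labelled Het (log2 difference -0.17), and at 497 FPKM in LacZ(+) and 517 FPKM in LacZ(-) cells (-0.056). S100a16 stood at 209 FPKM in the library labelled cKO and 183 FPKM in the library labelled Het (0.19), and at 285 FPKM in LacZ(+) and 307 FPKM in LacZ(-) cells (-0.10). All 9252 genes that reached 5 FPKM in both LacZ samples had a median of -0.17 on this scale, and relative to it S100a14 (0.11) and S100a16 (0.066) were on the higher side in LacZ(+) cells. S100a13 stood at 22.6 FPKM in the library labelled cKO and 25.3 FPKM in the library labelled Het (-0.16). It stood at 31.6 FPKM in LacZ(+) and 47.6 FPKM in LacZ(-) cells (-0.58).

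S100a8 and S100a9, which together form calprotectin, were at the bottom of the family. S100a8 stood at 0.272 FPKM in the library labelled cKO and 0.531 FPKM in the library labelled Het, and S100a9 at 0.0613 FPKM in the library labelled cKO, with 0 listed for the library labelled Het. Both were under the 1 FPKM minimum there. S100a8 stood at 6.02 FPKM in LacZ(+) and 4.49 FPKM in LacZ(-) cells, a log2 difference of 0.35, the only positive value in the family in that comparison. S100a9 stood at 0.721 FPKM in LacZ(+) and 1.37 FPKM in LacZ(-) cells, a log2 difference of -0.46, so the calprotectin genes had opposite signs at low levels. Neutrophils carry much calprotectin. None of 8 neutrophil and myeloid markers reached 1 FPKM in any library, and their sums were 0.827 FPKM in the library labelled cKO and 0.416 in that labelled Het, and 0.483 in LacZ(+) and 0.180 in LacZ(-) cells. Ltf is listed at 0 in all 4. The part of neutrophils in S100a8 and S100a9 was not tested.

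Counted over the family, 8 of the 10 members reached 1 FPKM in either library of the first comparison, and 5 of these were higher and 3 lower in the library labelled cKO. The median log2 difference was 0.13, beside 0.056 over all 13014 genes, of which 60.9% were higher. Relative to the median of 0.068 for genes that reached 5 FPKM in both libraries, 4 members were higher and 4 lower. S100a4 was the single member past the 2-fold line, beside 1.8% of all genes that were higher by as much. In the second comparison all 10 members reached 1 FPKM and 9 were lower in LacZ(+) cells, with a median of -0.52, beside -0.13 over all 13283 genes, of which 63.4% were lower. Relative to the median of -0.17, 7 members were lower and 3 higher. S100a4 was again the single member past the line, beside 2.6% of all genes that were lower by as much. The 6 members at 100 FPKM or more were all lower in LacZ(+) cells, but so were 81.4% of the 1090 genes at that level. The direction of these 6 members is thus shared by most genes of that level.

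**Figure D2:**
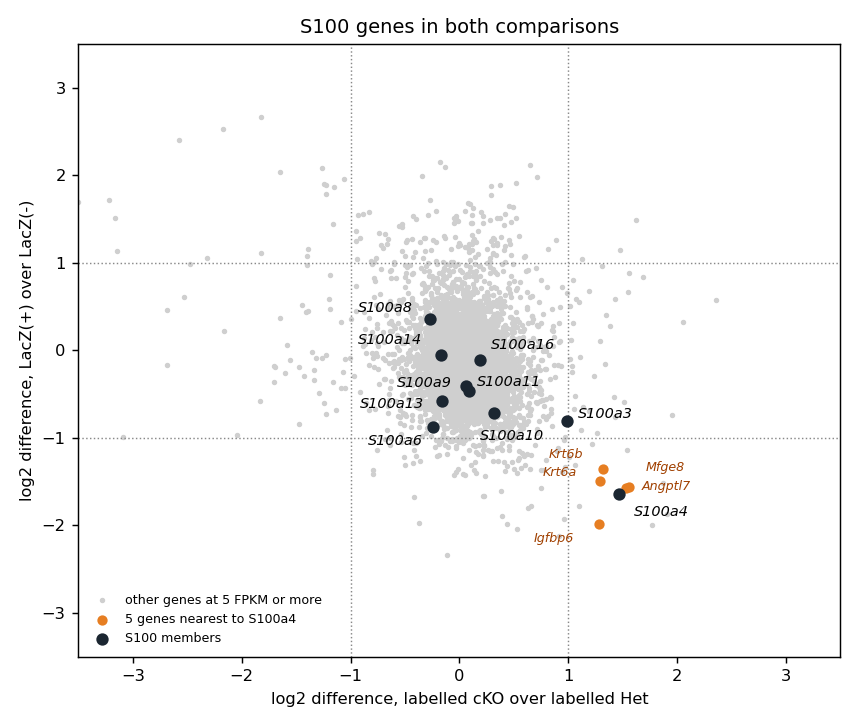
Log2 difference of libraries labelled cKO over Het (x axis) against that of LacZ(+) over LacZ(-) cells (y axis). The S100 genes are black, the 5 genes nearest to S100a4 orange, and other genes that reached 5 FPKM in both comparisons grey, with dotted lines at the 2-fold limits and 1 gene outside the axes. S100a4 lies at 1.47 and -1.64, S100a3 inside both limits, and the other members within 2-fold on both axes.

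The make-up of the family differed between libraries, mainly through S100a4. The 10 members summed to 10439 FPKM in the library labelled cKO and 6898 FPKM in the library labelled Het, and without S100a4 to 4525 and 4759 FPKM. In LacZ(+) cells they summed to 4729 FPKM and in LacZ(-) cells to 7915 FPKM, and without S100a4 to 4461 and 7078 FPKM. The higher sum of the library labelled cKO was therefore that of S100a4, whereas the lower sum of LacZ(+) cells was mostly that of S100a6, followed by S100a4, S100a10 and S100a11. S100a4 held 56.6% of the family's FPKM in the library labelled cKO and 31.0% in the library labelled Het, against 5.67% in LacZ(+) and 10.6% in LacZ(-) cells. The comparisons differ in genotype, sex, age, strain, stage and the sort by LacZ, which cannot be told apart for the gap between them. By level, S100a4 came first in the library labelled cKO and second in that labelled Het, and at place 6 in LacZ(+) and 4 in LacZ(-) cells. S100a6 came first in each library but the one labelled cKO. With 1 library per group, it is not known which neighbours in these orders differ beyond the spread between mice.

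**Figure D3:**
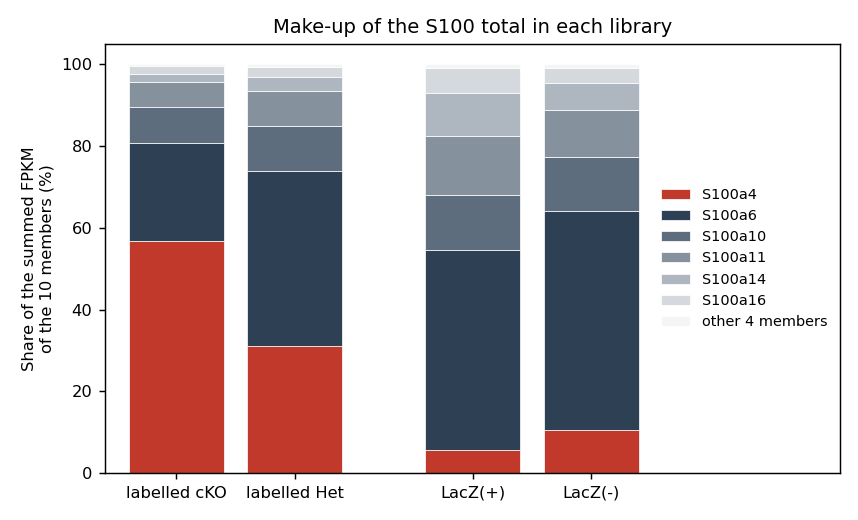
Share of the summed FPKM of the 10 S100 genes (y axis, percent) held by each gene in each library, as stacked bars from 0 to 100. The red S100a4 segment takes 56.6% in the library labelled cKO and 31.0% in that labelled Het, and 5.67% in LacZ(+) and 10.6% in LacZ(-) cells.

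Of the other S100 genes listed, 6 of 8 were in the tables and 2 reached 1 FPKM. S100a1, known from muscle, stood at 89.8 FPKM in the library labelled cKO and 74.8 FPKM in the library labelled Het (0.26), and at 67.7 FPKM in LacZ(+) and 113 FPKM in LacZ(-) cells (-0.73). S100a7a, the mouse relative of psoriasin, stood at 2.84 FPKM in the library labelled cKO and 6.21 FPKM in the library labelled Het (-0.91), and at 2.56 FPKM in LacZ(+) and 4.60 FPKM in LacZ(-) cells (-0.65). S100a7a was thus lower in the first group of both comparisons, unlike S100a4. S100b, a marker of glia and melanocytes, stayed between 0.374 and 0.743 FPKM, though its interval is shared with 2 other genes.

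Among partners and receptors of S100 proteins, the largest difference in the LacZ comparison was that of Anxa1. Of 26 genes, 22 reached 1 FPKM in the first comparison, with 16 higher and 6 lower in the library labelled cKO, beside 60.9% higher among all genes, and a median of 0.14. In the second, 21 reached it, with 4 higher and 17 lower in LacZ(+) cells, beside 63.4% lower among all genes, and a median of -0.19, beside -0.13. None was past the 2-fold line in either comparison, beside 1.8% higher and 2.29% lower by as much among all genes in the first and 4.67% and 2.6% in the second, which is near the background for so few genes. Relative to the median of genes that reached 5 FPKM in both libraries, Anxa1 and Mcam passed it in the LacZ comparison. Anxa2, the partner of S100a10, stood at 851 FPKM in the library labelled cKO and 738 in that labelled Het (0.21), and at 887 FPKM in LacZ(+) and 1003 in LacZ(-) cells (-0.18). Anxa1, the partner of S100a11, stood at 447 FPKM in the library labelled cKO and 445 in that labelled Het. It stood at 501 FPKM in LacZ(+) and 265 FPKM in LacZ(-) cells, a log2 difference of 0.92. Relative to the same median of genes at 5 FPKM, Anxa1 was at 1.09 and S100a11 at -0.23. Of the listed genes, Bsg lay between 135 and 209 FPKM and Mcam between 1.14 and 5.38 FPKM over the 4 libraries. The calprotectin receptor genes Ager and Tlr4 were near the floor. Ager stood at 1.93 FPKM in the library labelled cKO and 1.23 in that labelled Het, and at 1.89 FPKM in LacZ(+) and 3.27 in LacZ(-) cells. Tlr4 stood at 1.00 FPKM in the library labelled cKO and 0.492 in that labelled Het and is listed at 0 in both LacZ libraries. Myh9, the myosin heavy chain bound by S100a4, lay between 36.1 and 42.8 FPKM, and Cacybp, the partner of S100a6, between 31.4 and 39.3 FPKM in all 4 libraries.

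Along chromosome 3 the S100 genes form 2 blocks at the edges of the epidermal differentiation complex. The first, with S100a1 to S100a9 and S100a13, S100a14 and S100a16, spans 185 kb, the second, with S100a10 and S100a11, spans 44.2 kb, and 2825 kb lie between them. Neighbour counts here and below leave out predicted genes, clones and small RNA by name. In LacZ(+) cells, 11 of 12 measured S100 genes of both blocks were lower, S100a1 and S100a7a included. All 24 measured genes counted between the blocks were higher, 14 of them past the 2-fold line. The median was -0.62 for the S100 genes and 1.05 for the genes between the blocks. Relative to the median of genes that reached 5 FPKM in both libraries, the counts were 9 of 12 lower and 24 of 24 higher. Of all 13283 genes, 36.6% were higher and 4.67% past the line in that direction. Sprr4 (132 FPKM in LacZ(+) and 29.3 in LacZ(-) cells, 2.14), Lce1m (15.5 and 3.23, 1.96), Sprr1b (4.30 and 0.555, 1.77) and Sprr1a (54.5 and 17.6, 1.58), which encode cornified envelope proteins, differed most. The filaggrin genes of that stretch, whose proteins carry an S100-like domain fused to long repeats, went the same way: Flg stood at 52.8 FPKM in LacZ(+) and 25.0 in LacZ(-) cells (1.05), summed over 5 rows, and Flg2 at 4.04 and 1.43 FPKM (1.05). The Sprr2 and Lce genes are near-identical copies, so their reads may be split between them.

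In the first comparison the same stretch had the opposite sign. Of 21 measured genes between the blocks, 18 were lower and 3 higher in the library labelled cKO, with a median of -0.68 and 4 past the line, beside 39.1% lower and 2.29% past the line among all genes. Of the 10 measured S100 genes of both blocks, 6 were higher and 4 lower, with a median of 0.13. Sprr1b stood at 0.0362 FPKM in the library labelled cKO and 7.52 FPKM in that labelled Het (-3.04), Sprr4 at 1.31 and 4.65 FPKM (-1.29), Lce1c at 1.28 and 4.24 FPKM (-1.20) and Lce1m at 17.9 and 38.4 FPKM (-1.06). Most of these genes lay under 5 FPKM. The 13 measured genes in the 500 kb before the first block had medians of 0.066 in the Ctnnb1 comparison and -0.37 in the LacZ comparison, with none past the line.

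**Figure D4:**
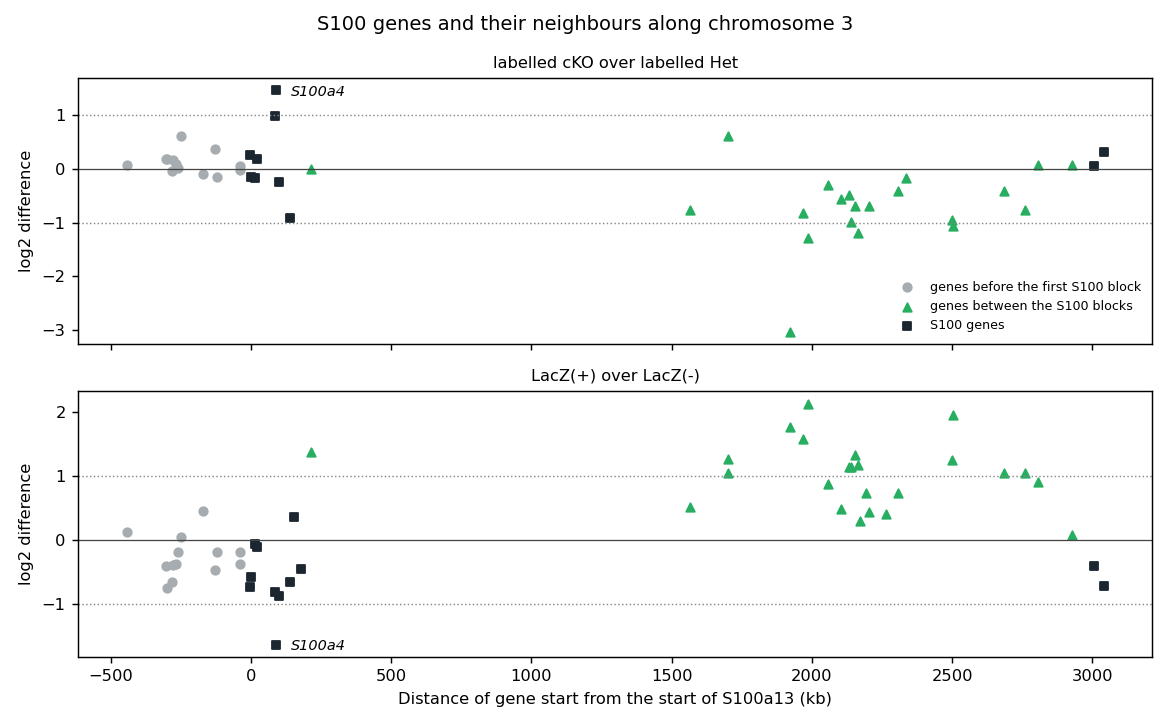
Log2 difference (y axis) of measured genes along chromosome 3 against the distance of their start from that of S100a13 in kb (x axis), for libraries labelled cKO over Het (top) and LacZ(+) over LacZ(-) cells (bottom). Black squares are S100 genes, green triangles the genes between the S100 blocks and grey circles the genes before them; in the lower panel all 24 green points are above 0 and 11 of 12 black points below it.

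Genes of other layers and states differed beside these, and their part in them was not tested; in bulk RNA, fewer cells of a type and less RNA per cell cannot be told apart. The 4 companion layer and inner bulge keratins summed to 494 FPKM in the library labelled cKO and 212 in that labelled Het, and to 226 FPKM in LacZ(+) and 561 in LacZ(-) cells. These sums were mostly Krt6a, at 415 and 168 FPKM in the libraries labelled cKO and Het and 170 and 480 FPKM in LacZ(+) and LacZ(-) cells. Krt6a and Krt6b went in the direction of S100a4 in both comparisons. Krt75 did so in the LacZ comparison (-1.42) and stood at 8.94 and 9.28 FPKM in the libraries labelled cKO and Het (-0.047). Krt16 did so in the Ctnnb1 comparison (0.62) but had the opposite sign to S100a4 in the LacZ comparison (0.67). The 7 suprabasal markers summed to 1478 FPKM in the library labelled cKO and 1352 in that labelled Het, and to 3694 FPKM in LacZ(+) and 1750 in LacZ(-) cells. In the LacZ comparison this was the direction of the genes between the blocks, among which Ivl and Lor of this list are themselves counted. In the Ctnnb1 comparison 5 of the 7 markers were higher and 2 lower under the cKO label, whereas most genes between the blocks were lower. The 8 cell cycle genes summed to 5.72 FPKM in the library labelled cKO and 44.7 in that labelled Het, and to 152 FPKM in LacZ(+) and 22.7 in LacZ(-) cells, opposite to S100a4.

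Because S100a4 is also used as a fibroblast marker, fibroblast genes were read beside it. The 6 listed genes summed to 23.1 FPKM in the library labelled cKO and 14.7 in that labelled Het, and to 10.9 FPKM in LacZ(+) and 18.1 in LacZ(-) cells. Col1a1 stood at 10.3 and 3.72 FPKM in the libraries labelled cKO and Het (1.26), and at 6.29 and 13.1 FPKM in LacZ(+) and LacZ(-) cells (-0.95). Col1a2 stood at 12.5 and 10.8 FPKM in the libraries labelled cKO and Het (0.19), and at 2.38 and 4.34 FPKM in LacZ(+) and LacZ(-) cells (-0.66). Both collagen genes thus had the sign of S100a4 in both comparisons. Dcn stood at 2.16 FPKM in LacZ(+) and 0.423 FPKM in LacZ(-) cells (1.15) and was under 1 FPKM in the libraries labelled cKO and Het. Col3a1, Lum and Pdgfra stayed under 1 FPKM in all 4 libraries. The part of fibroblasts in the level of S100a4 was not tested. Endothelial markers (4) were all under 1 FPKM. Of 6 leukocyte markers, Cd74 and Cd68 reached 1 FPKM, at most 5.20 FPKM, and of 8 melanocyte and Schwann markers Dct was highest, at 15.2 FPKM in LacZ(+) cells.

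The genes whose 2 differences lay nearest to those of S100a4 were Angptl7, Mfge8, Krt6a, Krt6b and Igfbp6, by Euclidean distance over these 2 log2 differences, taken from the 4 libraries, among 8288 genes. Angptl7, a secreted angiopoietin-like protein, stood at 259 FPKM in the library labelled cKO and 89.2 in that labelled Het, and at 18.4 FPKM in LacZ(+) and 56.8 in LacZ(-) cells, at a distance of 0.087. Mfge8, a secreted bridge between dying cells and phagocytes, stood at 121 FPKM in the library labelled cKO and 40.4 in that labelled Het, and at 16.01 FPKM in LacZ(+) and 49.2 in LacZ(-) cells (distance 0.12). Krt6a and Krt6b, near-identical keratins of the companion layer, were at distances of 0.22 and 0.32, and Igfbp6, a binding protein of insulin-like growth factors, at 0.39. S100a3 was at place 36 with a distance of 0.96, S100a10 at 1.47 and S100a6 at 1.87. Among the 8288 genes, only Pcolce2 and Sncg exceeded S100a4 in both differences.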

How the data were processed

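The 4 RNA sequencing libraries were grouped by their sample labels. The authors deposited their values as FPKM, per the file headers, in 2 tables of 32091 rows, 1 table per pair; the first also holds the authors' deposited log2 fold change, used for S100a3 only. Per the submitters' processing notes, Cufflinks 2.1.1, TopHat2 2.0.4 and the builds mm9 and GRCm38 were used, with no roles stated; settings for strand, multi-reads and scaling are not given. FPKM divide by a library total that a few short features can shift: mt-Ts1, a mitochondrial transfer RNA, made up 20.6% to 28.1% of the summed FPKM. Table coordinates are taken as mm9, since they reach 152509964 on chromosome 7, beyond the last GRCm38 gene end of 145324059. No other row of the tables overlaps an S100 member's interval. Some other named genes share their interval with other genes, among them Anxa2 and S100b (2 each) and Col1a1, Mcam, Myh9 and Krt32 (1 each).

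Rows of 1 symbol were summed (25 symbols turned into dates were restored from Ensembl identifiers), and the log2 of (FPKM + 1) was compared within each pair for genes that reached 1 FPKM in either of its libraries; changes of low genes are understated. Values given relative to a median use the median of genes that reached 5 FPKM in both libraries of a pair. The members and the lists were chosen with earlier results of these data known. Named genes are the members, Ctnnb1 and Axin2, in each list up to 4 genes past the 2-fold line and set partners, and the 5 genes nearest to S100a4, without clone and small RNA names or features listed at 0; other names, such as Ltf, Krt40, Cd34, S100b, Pcolce2 and Sncg, were added after their values were seen. Neighbours lie within 500 kb of the members on chromosome 3. Names of predicted genes, clones and small RNA were left out of them, so 81 genes were kept from 112 rows. Promoters come from RefSeq (GRCm38.p6). Python 3.11.15, pandas 2.3.3, NumPy 2.4.6 and Matplotlib 3.10.9 were used. Pseudocounts of 0.1 and 5, other minimums, centring, upper-quartile scaling, rescaling without mitochondrial and small RNA features, the highest row per symbol and genes alone in their interval were also tried, and a minimum of 100 FPKM was added after seeing the data.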

Additional observations from a re-analysis of the deposited data

How the results depend on the processing

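S100a4 kept its direction and stayed past the 2-fold line under all 10 alternatives. Its difference lay between 1.33 and 1.47 in the Ctnnb1 comparison and between -1.64 and -1.42 in the LacZ comparison. The minimums, the highest row per symbol and the limit to genes alone in their interval could not change this difference. S100a4 has 1 row, no other row overlaps it, and it stood above every minimum. With a pseudocount of 0.1, 2 members were past the line in the first comparison, S100a3 (1.05) joining S100a4. Rescaling without mitochondrial and small RNA features turned the members' median there to -0.013 and S100a11 to -0.079; centring turned S100a11 to -0.0065. The same rescaling kept the sign but moved S100a10 to 0.18, S100a16 to 0.052, S100a6 to -0.38, S100a13 to -0.29 and S100a14 to -0.31 in the Ctnnb1 comparison, and S100a11 to -0.19, S100a13 to -0.36 and S100a8 to 0.54 in the LacZ comparison. There, pseudocount 5 gave -0.48 for S100a3, 0.22 for S100a8 and -0.15 for S100a9, and pseudocount 0.1 gave -0.84 for S100a9. In the LacZ comparison S100a14 turned to 0.11 with centring, 0.070 with upper-quartile scaling and 0.16 with that rescaling, and S100a16 to 0.066, 0.022 and 0.11. Partners past the line numbered 1 with pseudocount 0.1 (Mcam), 2 with centring (Anxa1 and Mcam), 1 with upper-quartile scaling (Anxa1) and 2 with rescaling. In the Ctnnb1 comparison 532 of 13014 genes were past the line, and in the LacZ comparison 966 of 13283. With pseudocount 5 the counts were 303 and 460 of the same totals. They were 241 of 7623 and 490 of 7789 among genes alone in their interval. At 100 FPKM or more they were 83 of 958 and 121 of 1090. The share of higher genes among those past the line in the LacZ comparison was 64.2%, against 78.2% with centring, 73.7% with upper-quartile scaling, 79.1% with rescaling and 49.6% at 100 FPKM or more. The cause was not tested. No paired analysis was possible because each group has 1 library, and leaving out a library leaves no comparison. Depth is unknown, so counting error could not be given.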

Other observations

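Besides S100a4 and its nearest genes, 8 further genes were past the 2-fold line in both comparisons, with a higher level under the cKO label and a lower one in LacZ(+) cells; they were named after their values were seen. Hpgd, the prostaglandin-degrading dehydrogenase, stood at 101 FPKM in the library labelled cKO and 46.5 in that labelled Het, and at 11.8 FPKM in LacZ(+) and 43.0 in LacZ(-) cells. Stfa3, a stefin that inhibits cysteine proteases, stood at 51.0 FPKM in the library labelled cKO and 23.9 in that labelled Het, and at 109 FPKM in LacZ(+) and 273 in LacZ(-) cells. The other 6 were Mia1, Pcolce2, Psd, Rabl2, Sncg and Sphkap. With S100a4 and its 5 nearest these made 14 of 8288 genes.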
